A study of Mus musculus with 40 samples.

Results

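The genes described here encode proteins that coat the hepatic lipid droplet or that release and rebuild its triglyceride: Pnpla2, Pnpla3, Plin2, Plin5, Cidec, Cideb, G0s2, Dgat1 and Dgat2. They were chosen by name, as all probe sets of the array whose annotation gives 1 of these 9 symbols alone, of 18193 symbols so given in all. This gave 13 of 45037 probe sets. A probe set had to reach log2 4 on 3 of the 4 arrays in some group to be tested, as 10 of the 13 and 18935 on the whole array did, and 8 of the 9 genes were thereby measured. Where a gene had several such probe sets, the one with the highest mean stands for the gene and is called its lead probe set. Plin5 and Dgat2 each had another tested probe set, and its value is given where it changes a call or a direction.

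A lipid droplet is a core of triglyceride and cholesterol ester within a phospholipid monolayer, and its protein coat sets how readily the core is broken down. PNPLA2, also called adipose triglyceride lipase, takes the first fatty acid off triglyceride, ABHD5 activates it, and G0S2 inhibits it. PLIN2 is the abundant coat protein of hepatocyte droplets, and PLIN5 tethers droplets to mitochondria and can hold both PNPLA2 and ABHD5. CIDEB and CIDEC act in droplet growth and, for CIDEB, in the lipidation of lipoproteins, while DGAT1 and DGAT2 add the last fatty acid that makes triglyceride. PNPLA3 is a relative of PNPLA2 that sits on droplets and is induced by feeding.

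Liver RNA of 40 male C57BL/6J mice, 12 weeks old, was measured on 1 array per mouse in 10 groups of 4. Nrf2-null and Wt mice received by gavage D3T at 300 μmol/kg, CDDO-Im at 3, 10 or 30 μmol/kg, or the vehicle, in 3 treatments over 5 days, and the liver was taken 24 h after the last of them. D3T is a dithiolethione and CDDO-Im an oleanane triterpenoid imidazolide, both known as activators of the transcription factor Nrf2, and the vehicle of Cremophor-EL, DMSO and PBS was shared by all treatments. The deletion of Nrf2 was carried in the whole body, by mice bred from heterozygous parents of the inbred line, so no cell type is singled out by it. All mice ate a purified AIN-76A diet.

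Nfe2l2, the gene of Nrf2, separated the genotypes on 1 of its probe sets, at log2 2.72 to 3.10 in Nrf2-null and 10.77 to 11.75 in Wt mice, while the other overlapped. Hepatocyte markers read a mean of log2 14.9 to 15.35 on every array. Of 9 adipocyte markers, 7 had no tested probe set (Adipoq, Lep, Retn, Cfd, Plin1, Cidea and Plin4), and the 2 others, Car3 and Fabp4, averaged log2 11.38 to 13.43 over the 40 arrays. At 10 μmol/kg CDDO-Im in Wt mice 17% of all probe sets were called against vehicle in either direction. Of 8 Kupffer cell markers, 1 was called there, Marco (1.96, limma adjusted p = 0.0119), and of 7 measured stellate cell markers 2 were, Hand2 (1.18 higher, 0.000469) and Rgs5 (-0.57, 0.026). The mean of the stellate markers was log2 9.87 to 9.94 in these mice, against 9.88 to 10.02 with vehicle, and that of the Kupffer markers 8.53 to 9.18, against 8.45 to 9.15. Between the genotypes with vehicle 11.1% of all probe sets were called in either direction. There 3 of the 7 stellate markers, Hand2, Colec11 and Ecm1, were higher in Nrf2-null mice. The mean of the 7 was log2 10.21 to 10.55 in these mice, against 9.88 to 10.02 in Wt mice. The part of these cells in the results was not tested. In whole liver, fewer cells of a type and less RNA per cell cannot be told apart. Arrays of a group correlated at 0.9622 to 0.9939 over the tested probe sets. The Nrf2-null D3T replicate 4 and the Nrf2-null vehicle replicate 1 stood farthest from the rest of their groups, with mean correlations of 0.9642 and 0.9745. Mice given D3T or 30 μmol/kg CDDO-Im carried lower animal numbers than all other mice, and the effect of these treatments and of that numbering cannot be told apart.

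These 3 promoters are shown because their genes were those that fell in Wt mice given 10 μmol/kg CDDO-Im. RefSeq promoter sequences on GRCm38.p6 were at hand for 7 of the 9 genes, in 9 windows, and each window was read for 260 bases, 250 before and 10 after the transcript start, 5′ to 3′ on the strand of the gene. Capitals mark matches, on either strand, to AGGTCA (the hexamer of nuclear receptors), CACGTG (the E-box of the clock proteins), TGACNNNGC (the core of the antioxidant response element, the site of Nrf2) and TTATGNAA (the D-box of DBP and TEF).
Plin2, chr4:86670050-86670309, minus strand: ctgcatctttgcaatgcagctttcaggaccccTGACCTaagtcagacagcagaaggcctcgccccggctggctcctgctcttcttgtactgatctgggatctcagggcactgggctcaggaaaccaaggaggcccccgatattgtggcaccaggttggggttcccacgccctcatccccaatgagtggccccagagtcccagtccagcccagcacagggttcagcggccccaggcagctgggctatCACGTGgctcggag
Plin5, chr17:56117539-56117798, minus strand: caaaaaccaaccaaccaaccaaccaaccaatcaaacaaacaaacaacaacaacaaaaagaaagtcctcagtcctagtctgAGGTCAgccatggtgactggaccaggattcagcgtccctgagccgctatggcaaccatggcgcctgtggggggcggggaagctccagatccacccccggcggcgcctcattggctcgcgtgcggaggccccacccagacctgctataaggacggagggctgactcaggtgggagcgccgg
G0s2, chr1:193273179-193273438, minus strand: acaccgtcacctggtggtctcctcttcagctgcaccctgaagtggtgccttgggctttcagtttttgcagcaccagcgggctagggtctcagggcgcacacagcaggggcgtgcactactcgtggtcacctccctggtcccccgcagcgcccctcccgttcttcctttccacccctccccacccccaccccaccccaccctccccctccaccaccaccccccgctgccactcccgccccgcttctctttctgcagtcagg
The Plin2 window held AGGTCA on the opposite strand, beginning 218 bases upstream of the start, and CACGTG across the start itself. The Plin5 window, from the upstream of its 2 listed starts, held AGGTCA 170 bases upstream, and the G0s2 window held none of the 4 motifs. The antioxidant response element core was in 1 of the 9 windows, that of Cideb, 17 bases upstream of its start, and the D-box in 0. No 2 matches overlapped. Over all 32851 promoter windows of this length, AGGTCA was in 14.5%, CACGTG in 6.34%, TGACNNNGC in 10.7% and TTATGNAA in 3.13%. A match is a description of the letters, and no binding was measured.

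In Wt liver both perilipins and the lipase inhibitor G0s2 fell at the middle dose of CDDO-Im, 10 μmol/kg, without a called change in the lipase Pnpla2. Calls are those of limma at a Benjamini-Hochberg adjusted p under 0.05 over all 18935 probe sets. Of the 8 measured genes, 3 fell and 0 rose, against 10.3% of all probe sets called lower and 17% called in either direction in this comparison. The median log2 change of the 8 was -0.0869, against -0.042 over all probe sets.

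Plin2 read log2 12.44, 12.97, 13.28 and 13.03 in Wt mice given 10 μmol/kg CDDO-Im, against 13.59, 13.76, 13.74 and 13.67 in Wt vehicle mice. All 4 treated mice lay below all 4 vehicle mice, as was so in either direction for 22% of all probe sets. The log2 change was -0.77 ± 0.17 (SE, n = 4 each), or 0.588 of the vehicle level, with a limma adjusted p of 0.00219. Leaving out any 1 of the 8 mice kept it called, with log2 changes of -0.60 to -0.88.

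Plin5 read log2 9.41, 9.93, 10.39 and 10.29 with 10 μmol/kg CDDO-Im, against 10.89, 11.25, 11.38 and 11.04 with vehicle in Wt mice. These groups did not overlap either. Its log2 change was -1.14 ± 0.19 (SE, n = 4 each), 0.455 of the vehicle level (limma adjusted p = 0.000123), and it too stayed called without any 1 mouse. On the other Plin5 probe set the values were log2 7.75, 8.63, 9.12 and 8.99 with CDDO-Im, against 8.99, 9.51, 9.73 and 9.46 with vehicle, so that the highest treated mouse passed the lowest vehicle mouse. That probe set also fell, by 0.80 on the log2 scale (limma adjusted p = 0.0126).

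G0s2, the inhibitor of PNPLA2, was the most variable of the 3 between mice. It read log2 7.89, 11.07, 10.00 and 9.96 in Wt mice with 10 μmol/kg CDDO-Im, against 11.47, 11.31, 10.49 and 12.76 in Wt vehicle mice. The groups overlapped, since replicate 2 of the treated mice read above vehicle replicate 3, and treated replicate 1 lay far below the others. The log2 change was -1.78 ± 0.58 (SE, n = 4 each; limma adjusted p = 0.0333). The call was lost without any 1 of vehicle replicates 1, 2 or 4 or treated replicates 1 or 4, with adjusted p of 0.0522 to 0.19, and without treated replicate 1 the log2 change was -1.16. It was also lost without an expression minimum (adjusted p = 0.0778), in a fit of these 8 arrays alone (0.114) and by the test of the study's methods.

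**Figure D1:**
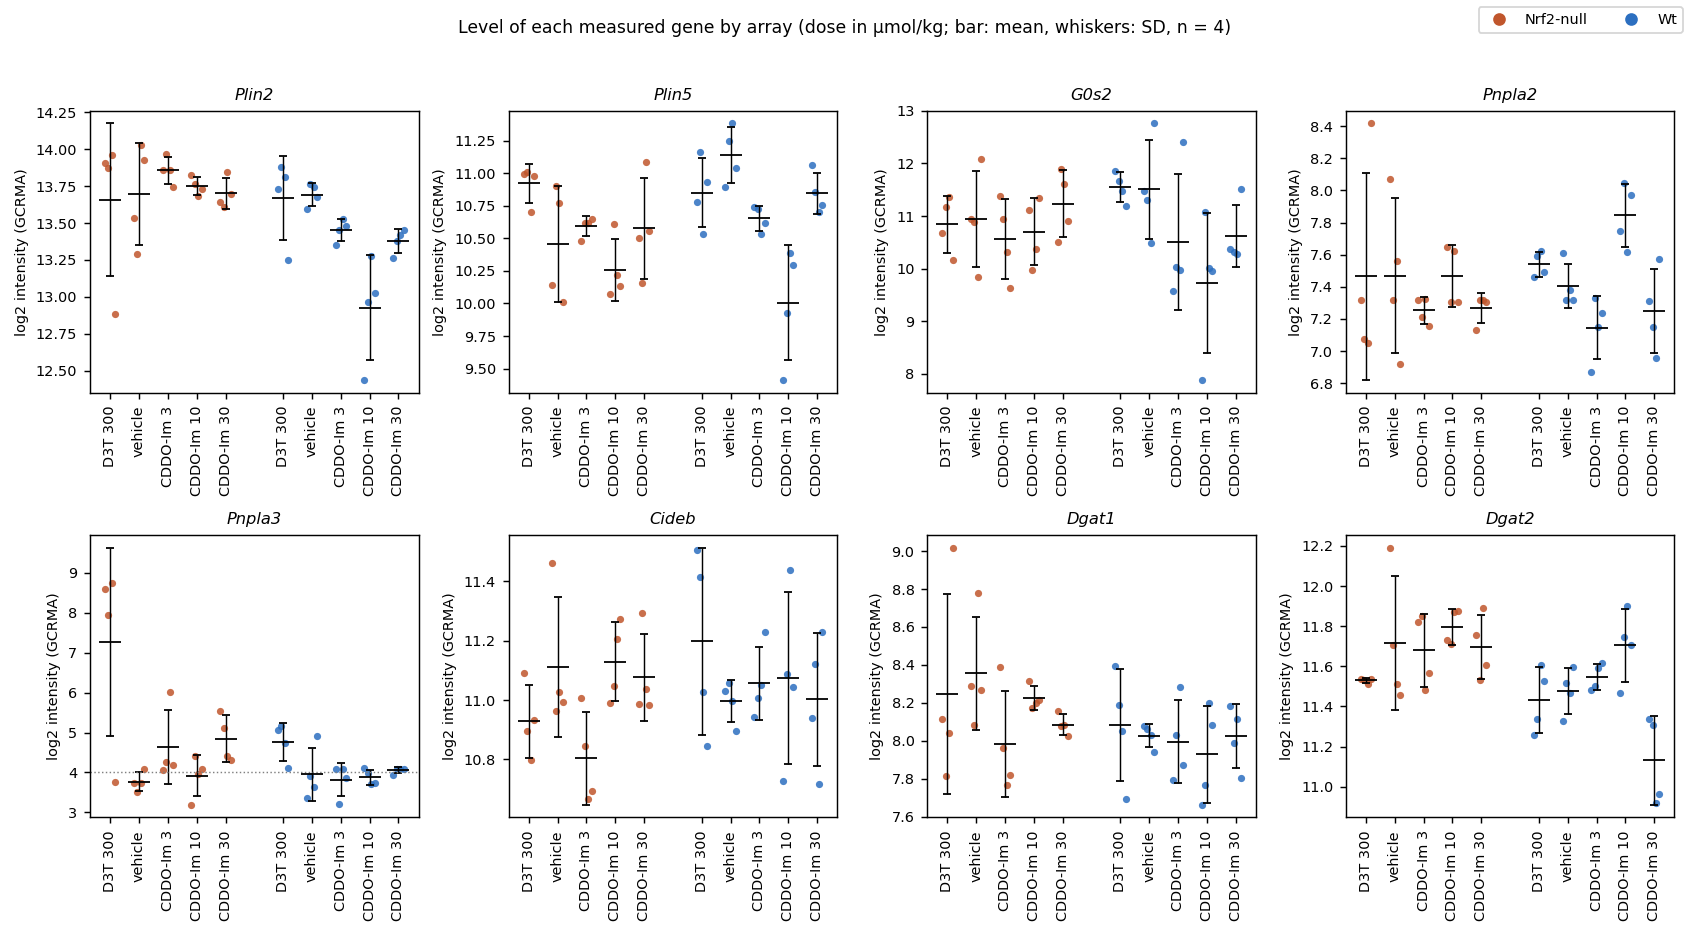
Level of the 8 measured genes on each array, by lead probe set. The x axis gives the groups, Nrf2-null to the left of Wt, with dose in μmol/kg, and the y axis the log2 intensity; points are mice, bars means and whiskers SD (n = 4). The dotted line for Pnpla3 is the minimum of log2 4. The Wt mice at 10 μmol/kg CDDO-Im were lowest for Plin2, at 12.44 to 13.28, and 3 of the 4 Nrf2-null D3T mice were highest for Pnpla3, at 7.93 to 8.75.

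Among the 8 genes, no lead probe set of a lipase or of a triglyceride synthesis gene was called in that comparison. Pnpla2 read log2 7.75, 8.04, 7.62 and 7.97 in Wt mice at 10 μmol/kg, against 7.61, 7.32, 7.38 and 7.32 with vehicle, so every treated mouse lay above every vehicle mouse. Its log2 change of 0.44 ± 0.20 (95% interval 0.03 to 0.85) missed the threshold in limma, at an adjusted p of 0.137. It was called with array weights (0.51, adjusted p = 0.0077) and in a fit of these 8 arrays alone (0.0428). Dgat2 differed between its probe sets. Its lead probe set had a log2 change of 0.23 (adjusted p = 0.199), whereas on the other one the treated mice read 9.38, 9.73, 9.94 and 9.52, against 9.04, 9.07, 9.06 and 9.14 with vehicle. There the groups did not overlap and the log2 change was 0.57 (limma adjusted p = 0.0113). For Dgat1 the log2 change was -0.10 (95% interval -0.46 to 0.27), for Cideb 0.08 (-0.20 to 0.35) and for Pnpla3 -0.08 (-1.31 to 1.16).

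The fitted changes of Plin2, Plin5 and G0s2 in Wt liver were not ordered by dose, each being lowest at 10 μmol/kg. For Plin2, the 3 μmol/kg mice read log2 13.35, 13.45, 13.53 and 13.48 and the 30 μmol/kg mice 13.26, 13.38, 13.42 and 13.46 in Wt liver. All of these lay below all 4 vehicle mice, and above the 10 μmol/kg mice apart from replicate 1 at 30 μmol/kg, which read just under the highest of them, but neither log2 change, -0.24 at 3 μmol/kg (limma adjusted p = 0.66) nor -0.31 at 30 μmol/kg (0.198), was called. Mice did not overlap in 8.55% of all probe sets at 3 μmol/kg and in 25.5% at 30 μmol/kg. For Plin5, the 3 μmol/kg mice read log2 10.74, 10.73, 10.54 and 10.62 and the 30 μmol/kg mice 11.06, 10.86, 10.70 and 10.76. The 3 μmol/kg mice lay below every vehicle mouse and the 30 μmol/kg mice overlapped them, with log2 changes of -0.49 (95% interval -0.87 to -0.10, adjusted p = 0.283) and -0.30 (-0.68 to 0.09, adjusted p = 0.284). On the other Plin5 probe set both doses overlapped the vehicle mice, with log2 changes of -0.28 at 3 μmol/kg (adjusted p = 0.726) and 0.04 at 30 μmol/kg (0.924), the second of opposite sign. By the test of the study's methods, Plin2 was lower at 3 and 30 μmol/kg and the Plin5 lead probe set at 3 μmol/kg. There the Kruskal-Wallis part spans all Wt groups, and the 1.5-fold change may come from any Wt treatment. Both genes passed the fold part through the 10 μmol/kg group alone. At the doses named, Plin2 was 1.18-fold and 1.24-fold lower and Plin5 1.40-fold lower, so these calls rest on non-overlap of the mice. G0s2 read log2 9.58, 10.03, 9.97 and 12.41 at 3 μmol/kg and 10.37, 10.33, 10.28 and 11.51 at 30 μmol/kg. At both doses replicate 4 was the high mouse and the other 3 lay below every vehicle mouse, and the log2 changes of -1.01 and -0.89 were not called (adjusted p = 0.543 and 0.301).

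**Figure D2:**
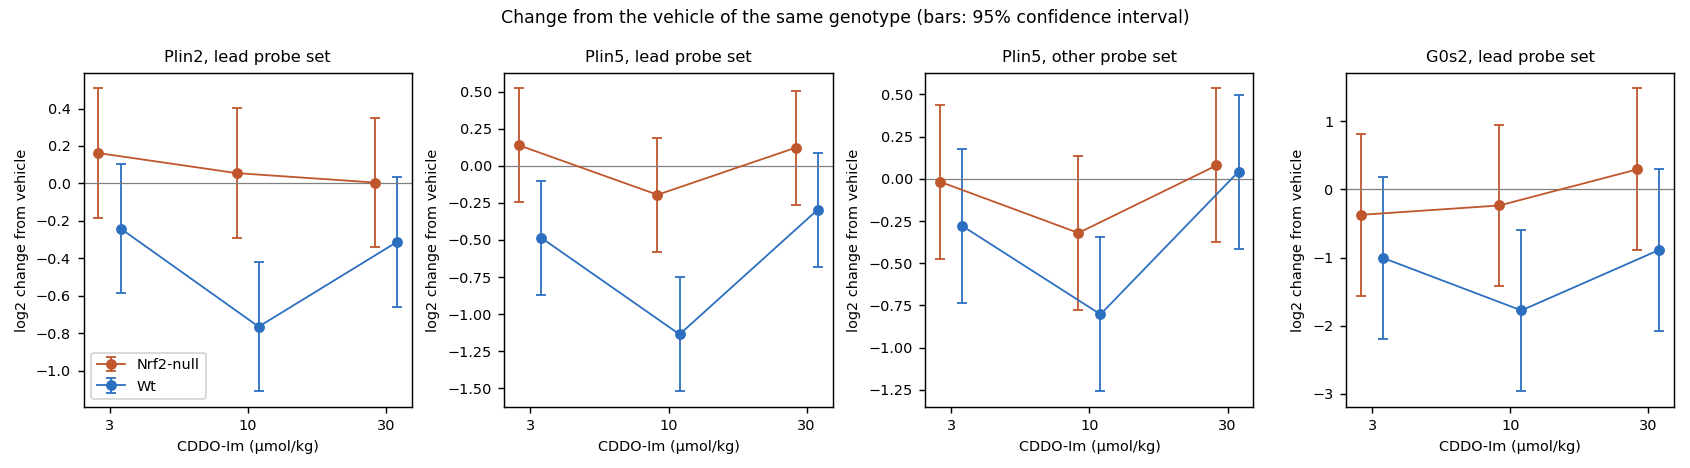
Log2 change from the vehicle of the same genotype (y axis) at 3, 10 and 30 μmol/kg CDDO-Im (x axis) for Plin2, both Plin5 probe sets and G0s2. Orange is Nrf2-null and blue is Wt; points are fitted changes and bars 95% confidence intervals (n = 4 mice per group). In Wt liver each curve is lowest at 10 μmol/kg, at -0.77, -1.14, -0.80 and -1.78, and the Nrf2-null intervals all include 0.

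At 3 μmol/kg none of the 8 genes was called in Wt liver, where 1.22% of all probe sets were. At 30 μmol/kg 1 was called, Dgat2, beside 16.2% of probe sets called lower and 19.8% in either direction, and the median log2 change over all probe sets was itself -0.126. Dgat2 read log2 11.34, 11.31, 10.92 and 10.96 at 30 μmol/kg, against 11.33, 11.52, 11.46 and 11.60 with vehicle. The groups overlapped narrowly at the lowest vehicle mouse. Its log2 change was -0.34 ± 0.12 (SE, n = 4 each; limma adjusted p = 0.0405). This was -0.17 once each array was centred on its median (adjusted p = 0.347), and it was lost without vehicle replicate 2, 3 or 4 or treated replicate 3 or 4 (adjusted p 0.0663 to 0.153). The other Dgat2 probe set read 0.18 in the opposite direction (adjusted p = 0.464).

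The 30 and 10 μmol/kg doses were also set against each other in Wt liver. Of the 8 genes, 1 was higher at 30 than at 10 μmol/kg, beside 4.62% of all probe sets, and 2 were lower, beside 12.7%, with 17.3% called in either direction. Plin5 was higher, by 0.84 ± 0.19 on the log2 scale (limma adjusted p = 0.00233), with all 4 mice at 30 μmol/kg above all 4 at 10 μmol/kg. Its other probe set gave 0.85 (adjusted p = 0.00839). Dgat2 was lower by 0.57 (adjusted p = 0.00127), again without overlap, while on its other probe set the difference of -0.39 was not called (adjusted p = 0.079). Pnpla2 read log2 7.31, 7.15, 6.96 and 7.58 at 30 μmol/kg, against 7.75, 8.04, 7.62 and 7.97 at 10 μmol/kg, a difference of -0.60 ± 0.20 (limma adjusted p = 0.0378). That call was lost after either rescaling of the arrays and without 10 μmol/kg replicate 2 or 4 or 30 μmol/kg replicate 1, 2 or 3 (adjusted p 0.0506 to 0.127). Plin2 (0.45, limma adjusted p = 0.0622) and G0s2 (0.89, 0.313) were not called between these doses, and their groups overlapped. A return toward vehicle at 30 μmol/kg was therefore called for Plin5 but not for these 2. Non-overlap was seen in 22.3% of all probe sets here.

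D3T had no called effect on the 8 genes in Wt liver, where 3.16% of all probe sets were called. The widest interval was that of Pnpla3, at 0.81 (95% interval -0.42 to 2.05, limma adjusted p = 0.544). The log2 change of Plin2 was -0.02 (-0.37 to 0.32), that of Plin5 -0.29 (-0.67 to 0.10) and that of G0s2 0.04 (-1.15 to 1.23). Direct comparison of 10 μmol/kg CDDO-Im with D3T called the perilipins and G0s2 lower with CDDO-Im, 3 of the 8 genes, against 11.2% of probe sets called lower and 18.2% in either direction. The 2 comparisons share the CDDO-Im mice.

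Plin2 read log2 12.44 to 13.28 with CDDO-Im at 10 μmol/kg, against 13.73, 13.88, 13.81 and 13.25 with D3T. D3T replicate 4 fell within the CDDO-Im range and the other 3 D3T mice lay above it. The difference was -0.74 ± 0.17 on the log2 scale (limma adjusted p = 0.00264). For Plin5, where D3T mice read 10.78, 11.16, 10.54 and 10.94, all above the CDDO-Im mice, it was -0.85 ± 0.19 (adjusted p = 0.00208). G0s2 read log2 11.86, 11.66, 11.47 and 11.20 with D3T, also above every CDDO-Im mouse, and its difference was -1.82 ± 0.58 (adjusted p = 0.0279). That of G0s2 was lost without D3T replicate 1 or 2 or CDDO-Im replicate 1 (adjusted p 0.0619 to 0.169), at -1.20 without the last of these. Non-overlap was seen in 22.2% of all probe sets here. Pnpla3 did not overlap either, at a difference of -0.89 that was not called (adjusted p = 0.334). Between 30 μmol/kg CDDO-Im and D3T, 0 of the 8 were called, beside 26.8% of all probe sets. Dgat2 came closest, at -0.30 (adjusted p = 0.0612), and was called without D3T replicate 1 or 30 μmol/kg replicate 1 or 2 (adjusted p 0.031 to 0.0453), while its other probe set gave -0.01 (0.966).

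**Figure D3:**
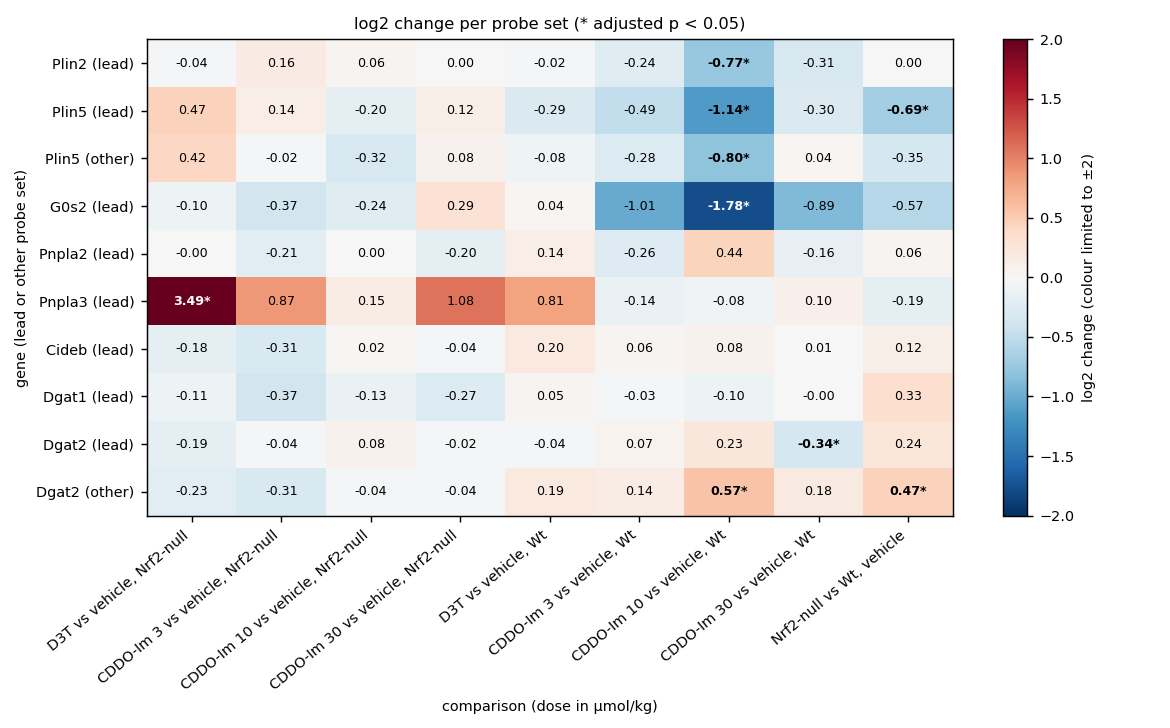
Log2 change of each tested probe set (rows, lead or other) in the 8 comparisons with vehicle and between the genotypes with vehicle (columns, dose in μmol/kg), printed in the cells and coloured red for higher and blue for lower, limited to ±2. An asterisk marks a limma adjusted p under 0.05. The calls in these columns lie with 10 μmol/kg CDDO-Im in Wt mice (Plin2, both Plin5 probe sets, G0s2 and the other Dgat2 probe set), with single ones for Dgat2 at 30 μmol/kg, Pnpla3 with D3T in Nrf2-null liver and Plin5 and the other Dgat2 probe set between the genotypes.

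Without Nrf2, CDDO-Im called none of the 8 genes at any dose. All probe sets called made up 1.38% at 3 μmol/kg, 0.444% at 10 μmol/kg and 0.882% at 30 μmol/kg in Nrf2-null liver. Plin2 read log2 13.82, 13.77, 13.68 and 13.73 in Nrf2-null mice at 10 μmol/kg, against 13.53, 13.29, 14.03 and 13.93 in Nrf2-null vehicle mice. The treated mice lay within the range of the vehicle mice, and the log2 change was 0.06 (95% interval -0.29 to 0.40). Plin5 read log2 10.08, 10.61, 10.22 and 10.13 at 10 μmol/kg, against 10.14, 10.90, 10.77 and 10.01 with vehicle, a log2 change of -0.20 (-0.58 to 0.19). For G0s2 it was -0.24 (-1.42 to 0.95) and for Pnpla2 0.00 (-0.41 to 0.41).

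The difference between the genotypes in these responses was tested as an interaction. At 10 μmol/kg it was called for 2 of the 8 genes, both with a lower response in Wt than in Nrf2-null liver, beside 3.22% of all probe sets called in that direction and 6.66% in either. For Plin2 the response of Nrf2-null minus Wt mice was 0.82 ± 0.24 on the log2 scale (95% interval 0.33 to 1.31, limma adjusted p = 0.0343). For Plin5 it was 0.94 ± 0.27 (0.40 to 1.48, adjusted p = 0.0291), and 0.48 (-0.16 to 1.13, adjusted p = 0.387) on the other probe set. On the lead probe set Plin5 averaged log2 10.45 in Nrf2-null and 11.14 in Wt vehicle mice. At 10 μmol/kg the means were 10.26 ± 0.24 and 10.01 ± 0.44 (SD, n = 4 each). The lower Nrf2-null vehicle level therefore enters the difference for Plin5. For G0s2 the difference of 1.54 was not called (adjusted p = 0.272). These calls lay near the threshold. Neither was made without an expression minimum (adjusted p 0.0917 for Plin2 and 0.079 for Plin5) or in a fit of these 16 arrays alone (0.0562 and 0.111). That of Plin2 was lost without any 1 of Wt vehicle replicates 2 or 3, Wt 10 μmol/kg replicate 1, Nrf2-null vehicle replicates 1 or 2 or Nrf2-null 10 μmol/kg replicates 1, 2 or 4 (adjusted p 0.0525 to 0.0938, differences 0.66 to 0.83). That of Plin5 was lost without Wt vehicle replicate 2 or 3, Wt 10 μmol/kg replicate 1, Nrf2-null vehicle replicate 1 or 4 or Nrf2-null 10 μmol/kg replicate 2 (adjusted p 0.0575 to 0.0828, differences 0.74 to 0.90). For none of the 8 was a difference between the genotypes called in the response to 3 μmol/kg, to 30 μmol/kg or to D3T, where 2.98%, 10.9% and 0.106% of all probe sets were called, in that order.

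Pnpla3 was the gene with the largest change of the 8 in any comparison with vehicle, and it changed with D3T in Nrf2-null liver. It read log2 8.59, 7.93, 8.75 and 3.77 in Nrf2-null mice given D3T, against 3.73, 3.51, 3.73 and 4.09 in Nrf2-null vehicle mice. The D3T replicates 1 to 3 were far above every vehicle mouse and replicate 4 lay among them. The log2 change was 3.49 ± 0.61 (SE, n = 4 each; limma adjusted p = 0.00128), where 2.03% of all probe sets were called higher and 3.8% in either direction. Without replicate 4, whose own value goes against the change, it was 4.66 (adjusted p = 8.01e-10). In a fit of these 8 arrays alone it was not called (adjusted p = 0.476), a fit in which 0 probe sets of the whole array were. Vehicle levels lay near or under the minimum of log2 4, so the size of the fold is set by the low end of the scale.

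In Wt mice Pnpla3 read log2 5.07, 5.16, 4.74 and 4.10 with D3T, against 3.37, 3.90, 3.64 and 4.90 with vehicle. Those groups overlapped. The genotypes' responses to D3T differed by 2.68 ± 0.86 (limma adjusted p = 0.2), which was not called. Without Nrf2-null D3T replicate 4 the difference was 3.85 (adjusted p = 9.12e-05). That mouse's own Pnpla3 value goes against the difference, so its omission is no separate support. Pnpla3 was also above every Nrf2-null vehicle mouse in the 4 Nrf2-null mice at 30 μmol/kg CDDO-Im, at log2 5.54, 5.10, 4.42 and 4.32, a change of 1.08 that was not called (adjusted p = 0.557). Groups did not overlap in 4.63% of all probe sets there.

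Nrf2-null D3T replicate 4 was apart for other genes too. It had the lowest Plin2 of its group, at log2 12.88 against 13.88 to 13.96 in the other 3, the highest Pnpla2, at 8.42 against 7.05 to 7.32, and the highest Dgat1, at 9.02 against 7.81 to 8.12. Its score on circadian clock genes, evening minus morning genes, was 1.16 against -1.96 to -1.11 in the other 3. The mean of 8 Kupffer cell markers was log2 7.25 there, the lowest of the 40 arrays, and the group's other arrays reached 9.03. The part of this mouse's state in the Pnpla3 value was not tested.

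Between the genotypes with vehicle, Plin5 was lower in Nrf2-null liver. It read log2 10.14, 10.90, 10.77 and 10.01 in Nrf2-null mice, against 10.89, 11.25, 11.38 and 11.04 in Wt mice. Nrf2-null replicate 2 lay just above Wt replicate 1, and the others did not overlap. The log2 difference was -0.69 ± 0.19 (limma adjusted p = 0.0155), 1 of the 8 genes, beside 4.42% of all probe sets called lower and 11.1% in either direction. It was lost without Wt replicate 3 or Nrf2-null replicate 1 or 4 (adjusted p 0.0547 to 0.076), and in a fit of these 8 arrays alone (0.141). On the other probe set the difference was -0.35 (adjusted p = 0.34). Plin2 differed by 0.00 (95% interval -0.34 to 0.35). Dgat1 read log2 8.29, 8.08, 8.78 and 8.27 in Nrf2-null mice, against 8.08, 8.06, 8.03 and 7.94 in Wt mice, just without overlap, as was so for 12.7% of all probe sets, and its difference of 0.33 was not called (adjusted p = 0.255). The other Dgat2 probe set read log2 10.23, 9.68, 9.02 and 9.24 in Nrf2-null mice, against 9.04, 9.07, 9.06 and 9.14 in Wt mice, a difference of 0.47 (adjusted p = 0.0484) with overlap, while its lead probe set gave 0.24 (adjusted p = 0.209).

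Over all 10 groups, mean Plin2 was lowest in Wt mice at 10 μmol/kg CDDO-Im (log2 12.93 ± 0.35, SD, n = 4), then in Wt mice at 30 μmol/kg (13.38 ± 0.083), a gap larger than either SD. It was highest in Nrf2-null mice at 3 μmol/kg (13.86 ± 0.090), and from there down to Wt at 30 μmol/kg only 1 neighbouring gap, that to Nrf2-null mice at 10 μmol/kg, exceeded the larger SD. Plin5 ran from 10.01 ± 0.44 in Wt mice at 10 μmol/kg to 11.14 ± 0.22 in Wt vehicle mice. The next above the lowest was the Nrf2-null 10 μmol/kg group at 10.26 ± 0.24, within its spread. G0s2 ran from 9.73 ± 1.33 in Wt mice at 10 μmol/kg to 11.55 ± 0.28 in Wt mice with D3T, and Cideb from 10.80 ± 0.16 in Nrf2-null mice at 3 μmol/kg to 11.20 ± 0.31 in Wt mice with D3T. In neither gene did any neighbouring pair of groups differ beyond the larger SD. Dgat1 had its lowest mean in Wt mice at 10 μmol/kg (7.93 ± 0.26) and its highest in Nrf2-null vehicle mice (8.36 ± 0.30). Pnpla2 was highest in Wt mice at 10 μmol/kg, at 7.85 ± 0.20, and the step down to Wt mice with D3T, 7.54 ± 0.078, exceeded both SD. Dgat2 was lowest in Wt mice at 30 μmol/kg (11.13 ± 0.22) and highest in Nrf2-null mice at 10 μmol/kg (11.80 ± 0.089). Cidec, which makes large droplets in fatty liver, read log2 2.44 to 3.28 on all arrays and was not tested.

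The droplet genes did not share 1 pattern over the 40 arrays. Pearson's r was 0.488 between Plin2 and G0s2, 0.332 between Plin2 and Plin5 and -0.481 between Plin2 and Pnpla2, as descriptions over arrays that share groups. The genes most like each member were taken as the 3 with the highest Pearson's r over the 40 arrays. For Plin2 these were Capn2 (0.90), Spon2 (0.849) and Gm19696 (0.819). For Pnpla2 they were Bnip3 (0.824), Tef (0.817) and Gne (0.797), and for Dgat2 Cmtm8 (0.821), Cox11 (0.775) and Sult1c2 (0.772). The closest gene was Chrna4 for Pnpla3 (0.811), Hpn for Cideb (0.785), Hnrnpc for Plin5 (0.731), Cnot10 for Dgat1 (0.721) and Amotl2 for G0s2 (0.709).

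Circadian clock genes moved with the same group, with log2 changes from vehicle of 6.83 for Dbp (limma adjusted p = 0.000338) and -3.88 for Arntl (0.000123) at 10 μmol/kg in Wt mice. A clock score was taken as the mean log2 level of evening clock genes, such as Dbp, Tef and Per2, minus that of morning clock genes, such as Arntl and Npas2. It was 2.44, 2.38, 2.30 and 3.99 in Wt mice at 10 μmol/kg CDDO-Im, against -2.84, -2.79, -2.85 and -2.54 in Wt vehicle mice. At 3 and 30 μmol/kg Wt mice scored -2.99 to -2.26, and with D3T -1.44 to 0.49. The score was therefore high in the group in which Plin2, Plin5 and G0s2 were low. The time of day at which livers were taken is not given in the sources used here, and the part of the clock state in these changes cannot be told apart from that of the treatment within Wt mice at this dose. With the score as a covariate, 0 of the 8 genes were called at 10 μmol/kg. Of all 18935 probe sets only 59 were then called higher and 49 lower, against 1260 and 1951 without it. The loss of calls is therefore not particular to these genes. The log2 changes were then -0.52 for Plin2 (limma adjusted p = 0.301), -0.94 for Plin5 (0.0815) and -1.50 for G0s2 (0.414), and that of Pnpla2 changed its sign, to -0.34 (0.5). Against D3T, Plin2 (-0.61, adjusted p = 0.0398) and Plin5 (-0.74, 0.0275) were still called with it and G0s2 was not (0.116). Of all probe sets 714 were called higher and 1087 lower there. The differences between the genotypes at 10 μmol/kg were 0.63 for Plin2 (adjusted p = 0.187) and 0.79 for Plin5 (0.138) with it, neither called. For that difference 371 of all probe sets were called higher and 352 lower with the covariate.

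The score also varied within the Nrf2-null groups. At 10 μmol/kg it was 1.99 and 2.33 in replicates 1 and 3 and -2.37 and -2.55 in replicates 2 and 4. Plin2 read 13.82 and 13.68 in replicates 1 and 3, and 13.77 and 13.73 in replicates 2 and 4, all above every Wt mouse at that dose. Plin5 read 10.08 and 10.22 in replicates 1 and 3, and 10.61 and 10.13 in replicates 2 and 4, of which all but replicate 2 lay inside the Wt range of 9.41 to 10.39. Pnpla2 read 7.65 and 7.62 in replicates 1 and 3, and 7.30 in both others. Nrf2-null vehicle replicate 1, with a score of 3.08 against -3.31 to -2.47 in the other 3, read 13.53 for Plin2, inside their range, 10.14 for Plin5, also inside it, and 8.07 for Pnpla2, above their 6.92 to 7.56. Nrf2-null D3T replicate 4, with a score of 1.16, differed from these mice in that its Plin2 of 12.88 was the lowest of all Nrf2-null arrays, and its Pnpla2 of 8.42 was the highest of the 40 arrays.

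**Figure D4:**
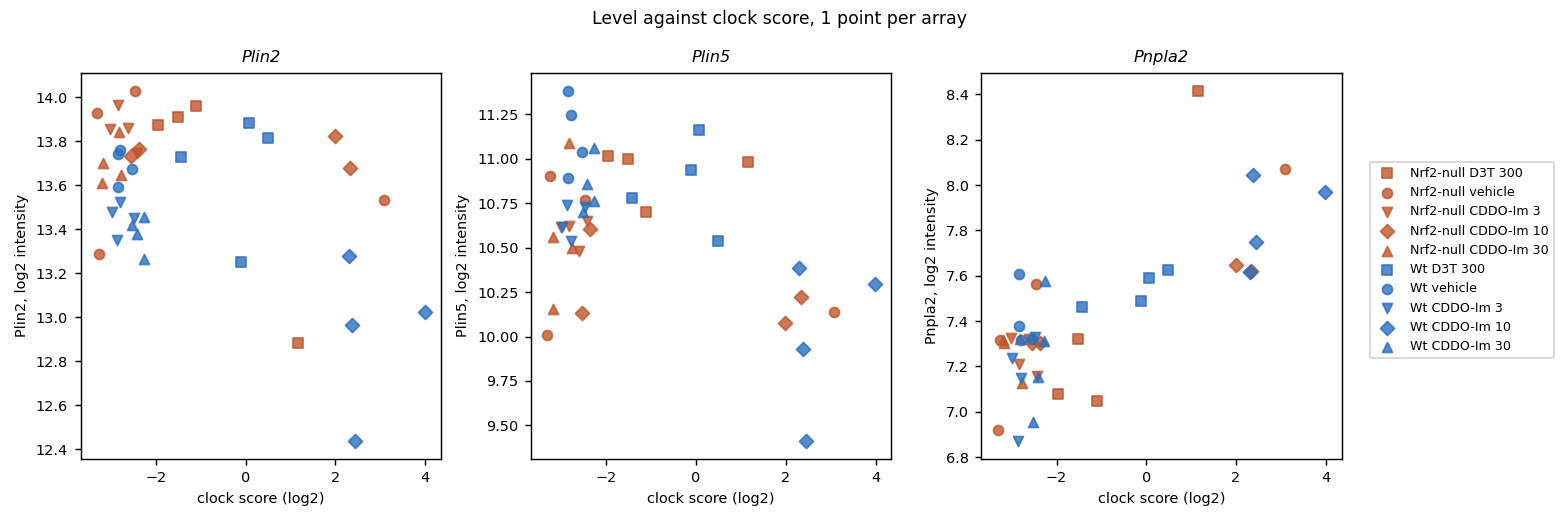
Log2 intensity of Plin2, Plin5 and Pnpla2 (y axes) against the clock score, a difference of mean log2 levels (x axis), with 1 point per array. Colour gives the genotype and the marker the treatment (dose in μmol/kg). At scores of about 2 the Nrf2-null mice at 10 μmol/kg read 13.68 and 13.82 for Plin2, and the Wt mice at 10 μmol/kg, at 2.30 to 3.99, read 12.44 to 13.28.

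Of 28 other droplet and lipolysis genes, 20 were measured. At 10 μmol/kg CDDO-Im 3 of them fell in Wt mice and 0 rose, with a median log2 change of -0.0758, against 10.3% of all probe sets called lower and 17% in either direction. These were Abhd5, the activator of PNPLA2 (-0.75 ± 0.22, limma adjusted p = 0.0153), Lipa, the lysosomal acid lipase (-0.41, 0.04), and Ldah, a droplet-bound hydrolase (-0.38, 0.0103). Monoglyceride lipase Mgll had a log2 change of -0.51 (adjusted p = 0.0598), and Plin3, the widely expressed perilipin, one of -0.10. In Nrf2-null liver at that dose 0 of the 20 were called, where 0.444% of all probe sets were. The response of Nrf2-null minus Wt mice was called for Mgll (1.10, adjusted p = 0.0105) and Lipa (0.64, 0.042), and for Abhd5 it was 0.63 (0.221). Of all probe sets 6.66% were called for that difference in either direction.

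With D3T, 1 of these 20 rose in Wt liver, Tm6sf2, which acts in the lipidation of very low density lipoprotein (1.31, adjusted p = 0.00482), and 2 rose in Nrf2-null liver, Mgll (0.83, 0.0109) and the carboxylesterase Ces1g (0.96, 0.03). Of all probe sets 3.16% were called in either direction with D3T in Wt liver and 3.8% in Nrf2-null liver. At 30 μmol/kg in Wt liver Ces1g rose (1.13, adjusted p = 0.00218), and Aadac, a triglyceride hydrolase of the endoplasmic reticulum (-0.43, 0.00129), and Ldah (-0.30, 0.0373) fell. At that dose 19.8% of all probe sets were called in either direction. Between the genotypes with vehicle, 4 of the 20 were lower in Nrf2-null liver and 2 higher, against 4.42% of all probe sets called lower and 11.1% in either direction. Ces1g (-3.82, adjusted p = 1.27e-12) and Fitm1 (-3.78, 6.98e-07), which helps package triglyceride into droplets, were far lower, and Mgll (-0.58) and Fitm2 (-0.51) were lower too. Tm6sf2 (1.38, adjusted p = 0.000863) and Hsd17b13, a droplet protein of hepatocytes (0.27, 0.0414), were higher.

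Of 18 genes of the path from fatty acid to diglyceride, 12 were measured. At 10 μmol/kg in Wt liver the phosphatidate phosphatases Lpin1 (2.55 ± 0.48, limma adjusted p = 0.000471) and Lpin2 (1.03 ± 0.18, 3e-04) rose and the acyltransferase Agpat2 (-0.73 ± 0.15, 0.00113) fell, with a median of -0.0146. In that comparison 17% of all probe sets were called in either direction. With D3T in Wt liver 3 rose, the acyltransferase Gpat3 (1.87, adjusted p = 0.00261), Lpin2 (0.91, 0.00379) and the acyl-CoA synthetase Acsl3 (1.20, 0.00519), with a median of 0.403 against -0.00146 over all probe sets. Of all probe sets 3.16% were called there in either direction. At 30 μmol/kg in Wt liver Gpat4 rose (0.78, 0.00465), beside 19.8% of all probe sets called in either direction. In the direct comparison, Wt mice given 10 μmol/kg CDDO-Im were below those given D3T for 5 of the 12, against 11.2% of all probe sets, among them the acyltransferase Gpat3 (-1.15) and Acsl3 (-1.26), and above them for Lpin1 (1.41). The response to 10 μmol/kg of Nrf2-null minus Wt mice was -2.47 for Lpin1 (adjusted p = 0.0234) and -0.88 for Lpin2 (0.0374), so both responses were lower in Nrf2-null mice. Of all probe sets 6.66% were called for that difference in either direction. With vehicle Lpin2 was already higher in Nrf2-null than in Wt liver (0.61, limma adjusted p = 0.0284), and this enters its difference. The part of the clock score in the values of Lpin1 and Lpin2 was not tested.

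**Figure D5:**
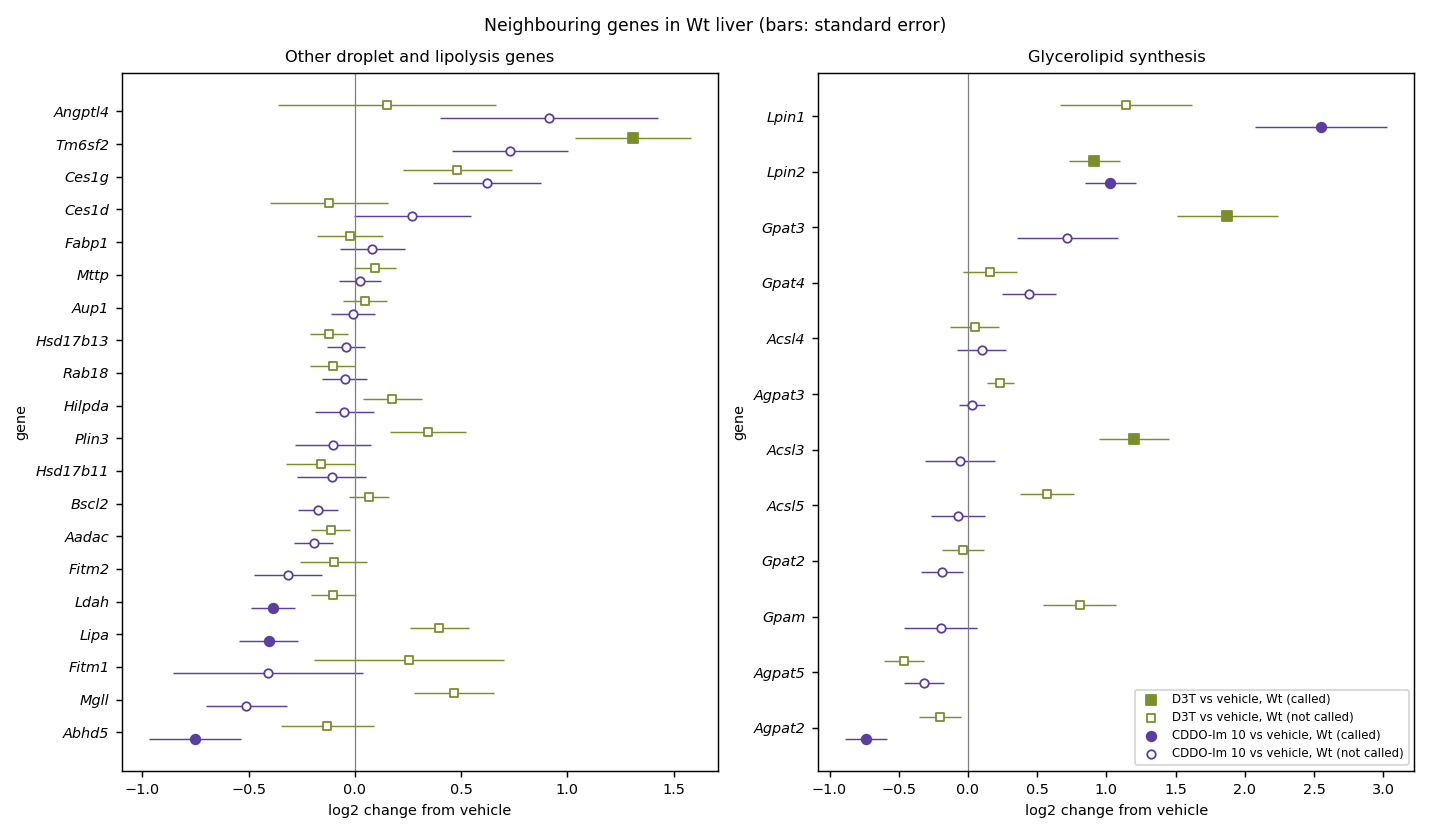
Log2 change from vehicle in Wt liver (x axis) of the other droplet and lipolysis genes and of the glycerolipid synthesis genes (y axis) with D3T (squares) and with 10 μmol/kg CDDO-Im (circles). Filled markers were called by limma and bars are standard errors (n = 4 mice per group). Abhd5, Lipa, Ldah and Agpat2 fell with CDDO-Im, at -0.75, -0.41, -0.38 and -0.73, and Lpin1 rose most, by 2.55.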

How the data were processed

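Liver RNA of 40 mice was measured on 1 array each, and groups and replicate numbers were taken from the sample labels. The deposited values are log2 intensities of 45037 probe sets made by the authors with GCRMA (background adjusted by probe sequence, then quantile normalization). Neither a GCRMA version nor which arrays entered 1 normalization was given in the sources used here. Gene symbols came from the platform annotation (34945 probe sets with 1 symbol). Probe sets under log2 4 on 2 or more arrays of every group were not tested, which left 18935. R 4.3.3 ran the tests, with limma 3.58.1 (statmod 1.5.0 for the robust step), all 10 groups sharing 1 model with a variance trend and robust variances, and p-values were adjusted by Benjamini-Hochberg over all tested probe sets. The fit was tested on simulated data first. Alternatives were other scalings, no minimum, 1 probe set per gene, array weights, a clock score covariate, only the groups compared, the replicate number as a block, leaving out each mouse, and the methods' test of the study (Kruskal-Wallis by permutation at a false discovery rate of 5%, a 1.5-fold change and exact Wilcoxon). In that test the Kruskal-Wallis and fold parts span all Wt groups, and only the Wilcoxon part is made per comparison. Members and gene lists were chosen with earlier results of these data known. All 9 members were named, with values for each probe set tested. Of each list, some or all called genes were named in the comparisons described, with the partners Abhd5 and Mgll. Not every comparison was described for every list. No label says whether the mice of a group shared a cage or day. Array number limits the precision. Plots were drawn with Matplotlib 3.10.9 in Python 3.11.15.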

Additional observations from a re-analysis of the deposited data

Results flagged for a closer look

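Single mice far from the other 3 of their group were sought in 80 groups of 4, by the gap to the nearest mouse over the whole range of the group, with Dixon's 95% limit, which chance passes in about 1 in 20 groups. That limit was passed 10 times. For Pnpla3 these were Nrf2-null D3T replicate 4 (0.836), low, Nrf2-null 3 μmol/kg CDDO-Im replicate 3 (0.901), high at log2 6.01, and Wt 30 μmol/kg replicate 1 (0.962), where the whole group spans only 3.94 to 4.10. For Plin2 it was Nrf2-null D3T replicate 4 (0.92), low at log2 12.88, and for Plin5 Nrf2-null D3T replicate 3 (0.894), low at 10.70. For G0s2 they were replicate 4 of Wt mice at 3 μmol/kg (0.843) and at 30 μmol/kg (0.926), both high. For Cideb they were Nrf2-null 30 μmol/kg replicate 2 (0.83) and Nrf2-null vehicle replicate 1 (0.871), both high, and for Pnpla2 Nrf2-null 30 μmol/kg replicate 1 (0.923), low at 7.13. The cause was not tested for any of them. The response to 10 μmol/kg CDDO-Im differed between Nrf2-null and Wt mice by a test of the difference itself for Plin2, by 0.8203, and for Plin5, by 0.9404, on the log2 scale. Both calls lay near the threshold and were lost without an expression minimum, with the clock covariate and in the smaller fit. The other Plin5 probe set gave 0.48 (limma adjusted p = 0.387), and the lower Nrf2-null vehicle level enters the Plin5 difference.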

How the results depend on the processing

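The number of the 8 genes called changed under some settings, and the cause was not tested beyond what a setting itself alters. In Wt mice given 10 μmol/kg CDDO-Im 3 genes became 0 with the clock score as covariate, 2 without an expression minimum and by the methods' test, and 4 with array weights, and the 3 called in the fit of only these groups held Pnpla2 in place of G0s2. At 30 μmol/kg 1 gene became 0 without an expression minimum, after centring, after quantile normalization and with the replicate block, and 2 with array weights. The methods' test also called 1 there, but it was Plin2, lower, and not Dgat2. At 3 μmol/kg 0 became 1 with array weights and 2 by the methods' test, Plin2 and Plin5, both lower. Over all probe sets 161 higher and 70 lower became 568 and 450 with array weights and 295 and 193 by the methods' test. The methods' calls at 3 and 30 μmol/kg rest on non-overlap, as said above. In fits of only the groups compared, the counts were 0 for D3T in Nrf2-null liver, 0 between the genotypes and 2 between 30 μmol/kg CDDO-Im and D3T, which array weights also gave. Between 10 μmol/kg CDDO-Im and D3T the methods' test called 1, and between 30 and 10 μmol/kg it called 1 and the covariate fit 0. For the response of Nrf2-null minus Wt mice, array weights called 1 with D3T, and at 10 μmol/kg 0 were called without a minimum, with the covariate and in the smaller fit.

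Dgat2 at 30 μmol/kg read 0.1753 on its other probe set, and Pnpla2 between 30 and 10 μmol/kg read 0.1248 with the covariate. Leaving out 1 mouse gave 2 to 3 genes at 10 μmol/kg, 0 to 1 at 30 μmol/kg, 0 to 1 between the genotypes, 2 to 3 for 10 μmol/kg against D3T, 0 to 1 for 30 μmol/kg against D3T, 2 to 4 for 30 against 10 μmol/kg, and 0 to 1, 0 to 2 and 0 to 1 for the responses to D3T, 10 and 30 μmol/kg.

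Deviations of same-numbered mice from their group means had a median correlation of 0.00847. They ran from -0.259 to 0.367, with 32 of 180 pairs above 0.1. The replicate block changed no other count. Over all probe sets, 1260 were higher and 1951 lower at 10 μmol/kg, but 1705 and 1471 after centring, and at 30 μmol/kg 686 and 3064 became 1636 and 916. With the covariate 59 were higher and 49 lower at 10 μmol/kg, and 24 and 32 between 30 and 10 μmol/kg. Array weights called 1912 higher and 2868 lower at 10 μmol/kg, and 1034 and 4480 at 30 μmol/kg. Between 30 μmol/kg and D3T they called 1419 and 5316. The methods' test called 696 higher and 877 lower at 10 μmol/kg, and 428 and 936 at 30 μmol/kg. With 4 mice a group, changes in G0s2 and Pnpla3 under about 1 log2 unit had intervals that include 0.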
